A study of Homo sapiens with 8 samples.

Results

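The genes described here are the non-coding host genes of small nucleolar RNAs (snoRNAs). They were taken from the RefSeq gene table of GRCh38 as every symbol made of SNHG and digits only, plus GAS5, ZFAS1 and EPB41L4A-AS1, which gave 32 of 59098 genes on chromosomes 1 to 22 and X. Membership follows the symbol, and SNHG27 holds no annotated snoRNA gene. SNHG10, SNHG20, SNHG21 and SNHG22 hold only a small Cajal body RNA gene, counted here with the snoRNA genes. The measure was the number of bases of each gene, widened by 1 kb at both ends, that lay in called peaks. The assay was KAS-seq, in which N3-kethoxal marks unpaired guanines in living cells, so that peaks show where the DNA was open, as in a transcription bubble. The cells were HEK293T, an established line from human embryonic kidney. The treated group had 0.5 mM vitamin C (ascorbic acid) in the medium for 10 min and then 5 mM N3-kethoxal for 10 min, and the control group had the same N3-kethoxal labelling without vitamin C. Each group had 2 labelled libraries with a peak list of their own, and 4 input libraries were not analysed here. The titles of all samples name HEK293T and were followed, although the number in the cell line field runs on from sample to sample. The labels do not say whether replicates came from separate cultures, so a p-value here covers the spread among 4 libraries that may be technical repeats.

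A snoRNA host gene is transcribed by RNA polymerase II, its introns release snoRNAs after splicing, and its spliced exons mostly code for no protein and are, in several known cases, removed by nonsense-mediated decay. Box C/D snoRNAs guide methylation and box H/ACA snoRNAs guide pseudouridylation of ribosomal and spliceosomal RNA, so the host genes serve ribosome production in dividing cells. Many host genes start at a run of pyrimidines, the same 5′ terminal oligopyrimidine feature that marks messenger RNAs of ribosomal proteins.

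The vitamin C lists held 9816 and 9896 peaks over 4.92 and 4.73 Mb, against 30351 and 24111 peaks over 15.6 and 12.9 Mb in the controls. The lists give no read counts. The depth that each list's fold and p values imply was 1.22 and 0.871 fragments per position in the vitamin C libraries, against 0.817 and 0.849 in the controls, so by this measure the shorter lists came from the libraries with the higher implied depth. Of 7 genes listed as markers of HEK293T cells, VIM had peaks in all 4 libraries and PAX2, LHX1, KRT8, KRT18, NEFL and NEFM had none in any. Of 10 markers of other cell types, 1 had a peak in at least 1 library and none had a peak in both controls. A peak reports open DNA rather than RNA, and in a bulk population fewer cells with the DNA open and less open DNA per cell cannot be told apart. A peak has no strand either, so transcription from a neighbour that overlaps a window cannot be told apart from that of the host gene.

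With vitamin C, nearly all host genes still had peaks, but fewer of their bases lay in them. In both controls 25 of the 32 members had a peak, and 23 of those 25 also had one in each vitamin C library, where 50.8% of all genes with a peak in both controls did. Among protein-coding genes the share with peaks in all 4 libraries was 49.7%, and among other long non-coding RNA (lncRNA) genes it was 44.6%. The other 2 members, SNHG14 and SNHG11, had a peak in 1 of the 2 vitamin C libraries. No member had peaks in both controls and in neither vitamin C library, where 26.8% of all such genes and 32.5% of such lncRNA genes were in that state. No member had peaks in both vitamin C libraries and in neither control. Only 6 of the 13337 genes with any peak did, so this is nothing particular to the members. The covered length was lower in both vitamin C libraries than in both controls in 21 of the 26 members with any peak, where 64.3% of all genes with any peak were, and it was higher in none, where 0.187% were. The lower shares were 67.0% in protein-coding and 55.9% in other lncRNA genes, and the higher shares were 0.169% and 0.185%. A gene lacking a peak in either control cannot be called lower, so these shares depend on how many such genes a set holds. All 21 lower members were among the 25 with a peak in both controls, and all 8572 lower genes were among 9601. For protein-coding genes these counts were 6360 of 7047, and for other lncRNA genes 1206 of 1379. On that base the members were not lower more often than all genes. With 2 libraries against 2, the exact two-sided permutation test cannot go below p = 0.33, so no single gene could pass a threshold of 0.05, and differences are described by whether the libraries of the groups overlap.

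Counting each base once, the members' windows held 59843 and 56439 bp in peaks in the vitamin C libraries, against 96743 and 91319 bp in the controls. The means were 58141 ± 2407 bp with vitamin C and 94031 ± 3835 bp in the controls (SD, n = 2 each). The vitamin C mean was 61.8% of the control mean, a log2 ratio of -0.69, where the length of all peaks together came to 33.8%, a log2 ratio of -1.57. Bases seen in both vitamin C libraries were also seen in the controls. Of 48202 bp covered in both vitamin C libraries, 100% lay in a peak of at least 1 control and 46656 bp lay in peaks of both controls. This sets bases shared by the 2 shorter lists against bases of either longer list, 109423 bp in these windows. The 68080 bp covered in either vitamin C library were not set against the controls. The share over all genes was not computed, so nothing particular to the members follows. The median log2 ratio per gene, computed from group means plus 100 bp, was -0.81 over the 25 members with a peak in both controls, -1.53 over 1379 other lncRNA genes, -1.68 over 7047 protein-coding genes and -1.59 over all 9601 genes.

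**Figure D1:**
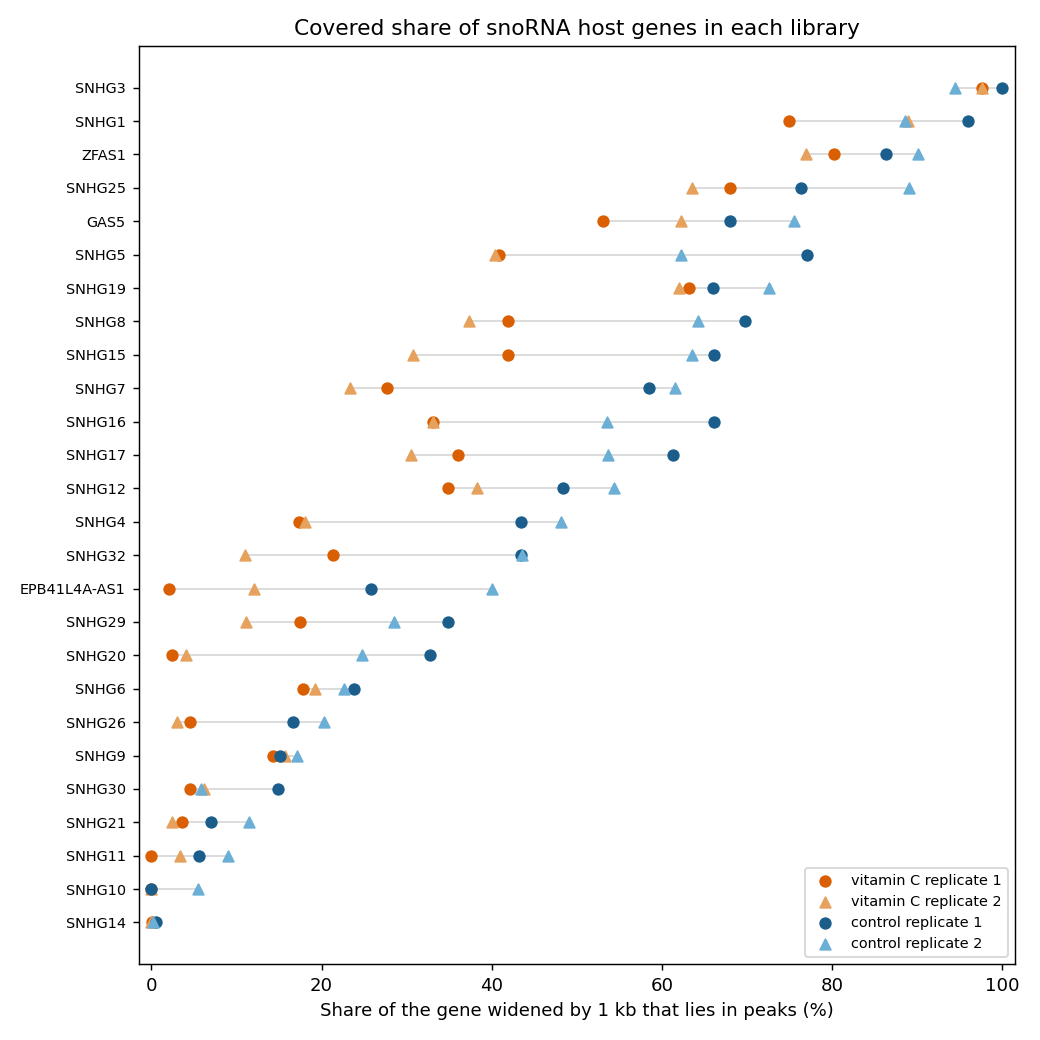
Share of each widened gene that lies in peaks (x axis, %) for the 26 members with a peak in any library (y axis, by mean control share), with 1 point per library and vitamin C in orange and control in blue. SNHG3 stayed near full coverage in all 4 libraries, and the orange points of 21 members lie left of both blue points.

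The members were not alike. Relative to the control mean, the vitamin C mean was over 75% in 8 of the 25, between 50% and 75% in 7, between 25% and 50% in 5, and 25% or less in 5. On the log2 scale 21 of the 25 lay above the median of all genes and 4 lay below it.

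The host genes covered nearly from end to end kept most of that coverage. SNHG3, at chr1:28505943-28510892, hosts SNORA73A and SNORA73B, the U17 snoRNAs that act in ribosomal RNA processing. It had 6789 and 6787 bp in peaks with vitamin C, against 6950 and 6561 bp in the controls, a log2 ratio of 0.01. The vitamin C values lay between the control values, with a two-sided p of 1 in the exact permutation test. A single peak crossed the gene in both vitamin C libraries, at 11754 and 11924 bp, and in control replicate 1, at 13077 bp, and it was the widest of each of these lists. In control replicate 2 the gene was covered by 2 peaks, of which the wider was 8580 bp and had rank 7. All but 100 bp of the SNHG3 window also lies in the window of the coding gene RCC1, at chr1:28506043-28538989, which regulates the GTPase Ran and had 13000 and 12898 bp with vitamin C, against 16000 and 14262 bp in the controls.

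ZFAS1, at chr20:49278178-49289260, is read away from the zinc finger gene ZNFX1 and hosts the box C/D snoRNAs SNORD12, SNORD12B and SNORD12C. It had 10499 and 10061 bp in peaks with vitamin C, against 11301 and 11783 bp in the controls, a log2 ratio of -0.17. The groups did not overlap (exact permutation p = 0.33), although the vitamin C mean was 89.1% of the control mean. Its widest peak had rank 5 and rank 9 in the vitamin C lists, against rank 8 and rank 4 in the control lists. SNHG1, at chr11:62851978-62855885, hosts 9 annotated snoRNA genes, among them the box C/D genes SNORD22 and SNORD25 to SNORD31. It had 4431 and 5254 bp with vitamin C, against 5672 and 5231 bp in the controls, a log2 ratio of -0.17. Vitamin C replicate 2 lay just above control replicate 2, so the groups overlapped (exact permutation p = 0.667).

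GAS5, at chr1:173863901-173869045, is a transcript known to build up in cells that stop growing, and it holds 11 annotated snoRNA genes. It had 3795 and 4445 bp in peaks with vitamin C, against 4860 and 5398 bp in the controls, a log2 ratio of -0.31 (exact permutation p = 0.33). Both vitamin C values were below both controls, and the mean was 80.3% of the control mean. SNHG12, at chr1:28578538-28582983, hosts 4 snoRNA genes, was covered over a smaller share of its window, and had 2248 and 2464 bp with vitamin C, against 3122 and 3506 bp in the controls, a log2 ratio of -0.48. These groups did not overlap either.

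The other widely covered members had between 38.8% and 58.3% of their control mean left. SNHG29, at chr17:16438987-16470648, hosts SNORD49A, SNORD49B and SNORD65 and had 5877 and 3741 bp with vitamin C, against 11726 and 9619 bp in the controls, a log2 ratio of -1.13. SNHG17, at chr20:38420588-38435328, hosts box H/ACA snoRNAs of the SNORA71 family and had 6041 and 5116 bp with vitamin C, against 10259 and 8977 bp in the controls, a log2 ratio of -0.78. SNHG16, at chr17:76557764-76565348, had 3170 and 3169 bp with vitamin C, against 6337 and 5128 bp in the controls, a log2 ratio of -0.84. In all of these, both vitamin C libraries were below both controls, by more than the gap between libraries of a group.

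SNHG4, at chr5:139274101-139284900, begins at the same base as the coding gene MATR3, which encodes the nuclear matrix protein matrin 3, and lies wholly within it. It had 2225 and 2317 bp with vitamin C, against 5556 and 6162 bp in the controls, a log2 ratio of -1.33. MATR3, over its much longer span, had 4564 and 6351 bp with vitamin C, against 16249 and 15198 bp in the controls. These values include the bases of SNHG4, so the 2 genes are not separate readings. SNHG15, at chr7:44983023-44986696, had 2376 and 1748 bp with vitamin C, against 3751 and 3606 bp in the controls, a log2 ratio of -0.81. SNHG7, at chr9:136724594-136728184, had 1547 and 1305 bp with vitamin C, against 3272 and 3443 bp in the controls, a log2 ratio of -1.18.

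SNHG5, at chr6:85677007-85678733, hosts SNORD50A and SNORD50B, known as U50. It had 1524 and 1506 bp with vitamin C, against 2873 and 2322 bp in the controls, a log2 ratio of -0.74. The groups of SNHG15, SNHG7 and SNHG5 did not overlap, with an exact permutation p of 0.33 for each. SNHG5 carried the strongest peak of any member in 3 of the 4 libraries by the authors' fold enrichment over background, at 16.0 and 36.9 with vitamin C, against 58.9 and 59.5 in the controls. SNHG1 was the strongest in vitamin C replicate 1, with a fold of 30.8. Fold is a value of each peak in its own list, and 13 and 11 of the 24 members with a peak in a vitamin C library had their strongest peak in the top 10% of that list, against 19 of 25 and 18 of 26 members in the controls. The vitamin C lists were shorter, so their top 10% was a smaller set of peaks. These counts therefore do not compare strength between groups, and the same counts over all genes were not made.

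EPB41L4A-AS1, at chr5:112160526-112162501, hosts SNORA13 and is read from next to the coding gene EPB41L4A. It was among the members with least coverage left, with 83 and 480 bp with vitamin C, against 1025 and 1593 bp in the controls, a log2 ratio of -1.88 (exact permutation p = 0.33). The groups did not overlap, but the vitamin C libraries differed from each other by more than their mean. Its strongest peak lay past the annotated end of the gene in all 4 libraries.

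The 6 next members by control coverage were all lower with vitamin C, to very different degrees. SNHG32 had 1461 and 751 bp with vitamin C, against 2973 and 2981 bp in the controls. SNHG20, nearly all of which lies in the span of SEC14L1, had 205 and 340 bp with vitamin C, against 2729 and 2067 bp in the controls, a log2 ratio of -2.75. The bases covered in the vitamin C libraries of SNHG20 did not overlap each other.

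SNHG14, at chr15:24823608-25419462, is the 595855 bp imprinted transcript of the Prader-Willi region that runs antisense to UBE3A. It had 568 and 0 bp with vitamin C, against 3238 and 1148 bp in the controls, a very small share of the gene in every library. SNHG8 had 1283 and 1142 bp with vitamin C, against 2136 and 1967 bp in the controls. SNHG25 had 1592 and 1487 bp with vitamin C, against 1787 and 2085 bp in the controls, and SNHG19 had 1628 and 1598 bp with vitamin C, against 1700 and 1870 bp in the controls. The libraries of the groups did not overlap in any of these 6 members, and SNHG19, a gene of 577 bp, was covered over its whole annotated length in all 4 libraries.

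Among the remaining members, SNHG6, SNHG26, SNHG21 and SNHG11 were lower in both vitamin C libraries than in both controls, with log2 ratios of -0.30, -2.00, -1.30 and -1.45. SNHG30 and SNHG9 overlapped between groups, with log2 ratios of -0.81 and -0.08 (exact permutation p = 0.667 each). The covered bases of SNHG9 lay wholly in the flank it shares with the ribosomal protein gene RPS2, with 0 bp inside SNHG9 in all 4 libraries. SNHG11 also had 0 bp inside the annotated gene in all 4 libraries. SNHG10 had 217 bp in control replicate 2 only, all of it outside the gene. SNHG18, SNHG22, SNHG27, SNHG28, SNHG31 and SNHG33 had no peak in any library, which shows no open DNA detectable at these lists' thresholds. Several members in these last sentences were picked out after their values were seen.

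The coverage was also compared between zones along the host genes. The strand and a start base were taken from the RefSeq promoter table, which matched 28 of the 32 members. The members' zones used only the strand and were cut from the edges of the annotated gene. The listed start lay at that edge except in ZFAS1, 464 bp inside the gene, and SNHG12, 1110 bp inside. For the 20 of these with a peak in both controls, leaving out the very long SNHG14, each gene was cut into 3 stretches of equal length with 1 kb on either side. In the 1 kb past the end, 50.9% and 50.1% of bases lay in peaks with vitamin C, against 67.2% and 69.4% in the controls, so that the vitamin C mean was 74.0% of the control mean. In the 1 kb before the start, 11.1% and 14.1% of bases were covered with vitamin C, against 24.8% and 22.8% in the controls, or 52.8% of the control mean. The start-side, middle and end-side stretches of the gene lay between these, at 61.6%, 60.1% and 61.0% of the control mean.

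The 1 kb past the end was thus the most covered zone of the members in all 4 libraries, and the groups did not overlap in any of the 5 zones. In 998 other lncRNA genes the 1 kb past the end was covered over 3.77% and 3.94% of bases with vitamin C, against 10.2% and 9.18% in the controls, and the 1 kb before the start was the more covered side. In 5890 protein-coding genes the zone past the end was covered over 7.72% and 7.37% with vitamin C, against 18.9% and 16.6% in the controls, and it was the more covered side, as in the host genes. The median length was 4846 bp in the members, 9527 bp in other lncRNA genes and 28180 bp in protein-coding genes with a peak in both controls, so the zones are shown side by side and were not tested against each other.

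**Figure D2:**
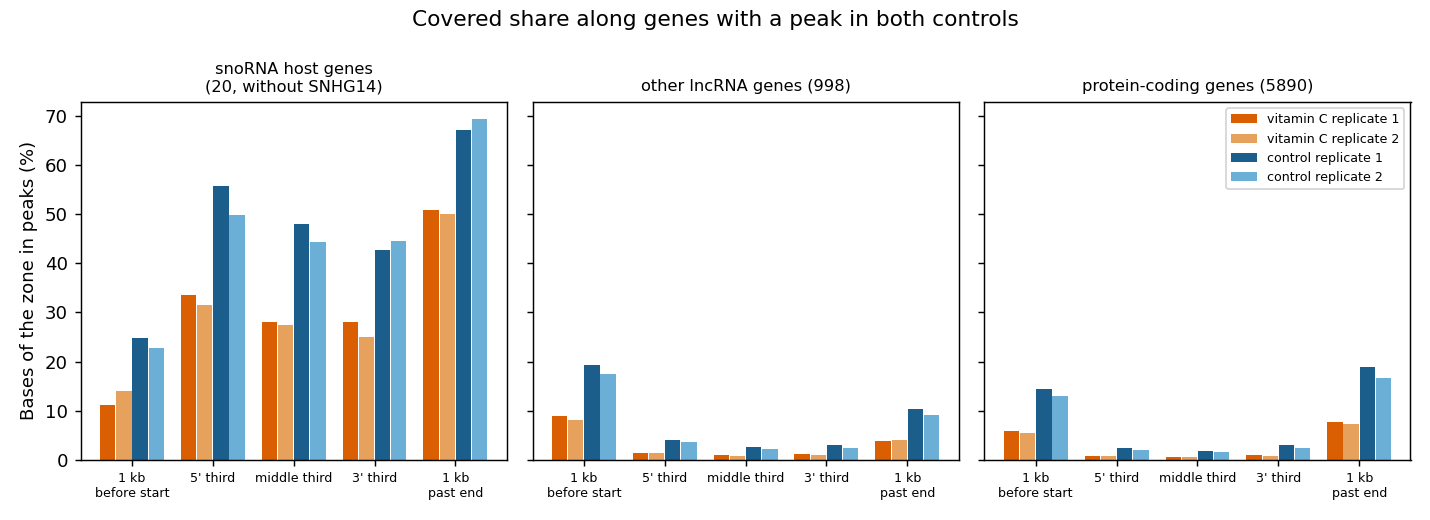
Share of bases in peaks (y axis, %) in 5 zones along the gene for 20 snoRNA host genes, 998 other lncRNA genes and 5890 protein-coding genes with a peak in both controls, with 1 bar per library. In the host genes the 1 kb past the end is the most covered zone, at 50.1% to 50.9% with vitamin C and 67.2% to 69.4% in the controls.

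In several widely covered members, the peaks that touched the window ran on past the end of the gene, whereas those of SNHG29 ended 0 kb past it in all 4 libraries, inside the gene. SNHG3 peaks ended 5.96 and 6.14 kb past the gene with vitamin C, against 7.12 and 6.13 kb in the controls. GAS5 peaks ended 4.41 and 4.36 kb past the gene with vitamin C, against 6.34 and 4.49 kb in the controls. For GAS5, both vitamin C libraries stopped short of both controls, while for SNHG3 the groups overlapped.

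SNHG17 peaks ended 2.25 and 2.08 kb past the gene with vitamin C, against 5.42 and 5.03 kb in the controls. SNHG16 peaks ended 2.72 and 2.44 kb past the gene with vitamin C, against 4.51 and 4.42 kb in the controls. ZFAS1 peaks ended 2.69 and 1.25 kb past the gene with vitamin C, against 3.13 and 2.82 kb in the controls. In these 3 genes the distance in every vitamin C library was below that in both controls. The distance follows only peaks that touched the window, so a stretch split into several peaks counts as shorter. Separate vitamin C peaks lay further on in all 3 genes. In SNHG16 they reached 12.077 and 11.99 kb from the gene start, against 12.094 and 12.003 kb for the control peaks. In SNHG17 they reached 19.474 and 19.54 kb, against 20.162 and 19.773 kb. In ZFAS1 they reached 16.368 and 16.362 kb, against 14.215 and 16.357 kb, so both vitamin C libraries went beyond both controls. A shorter distance in these 3 genes therefore does not show that open DNA ended earlier.

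**Figure D3:**
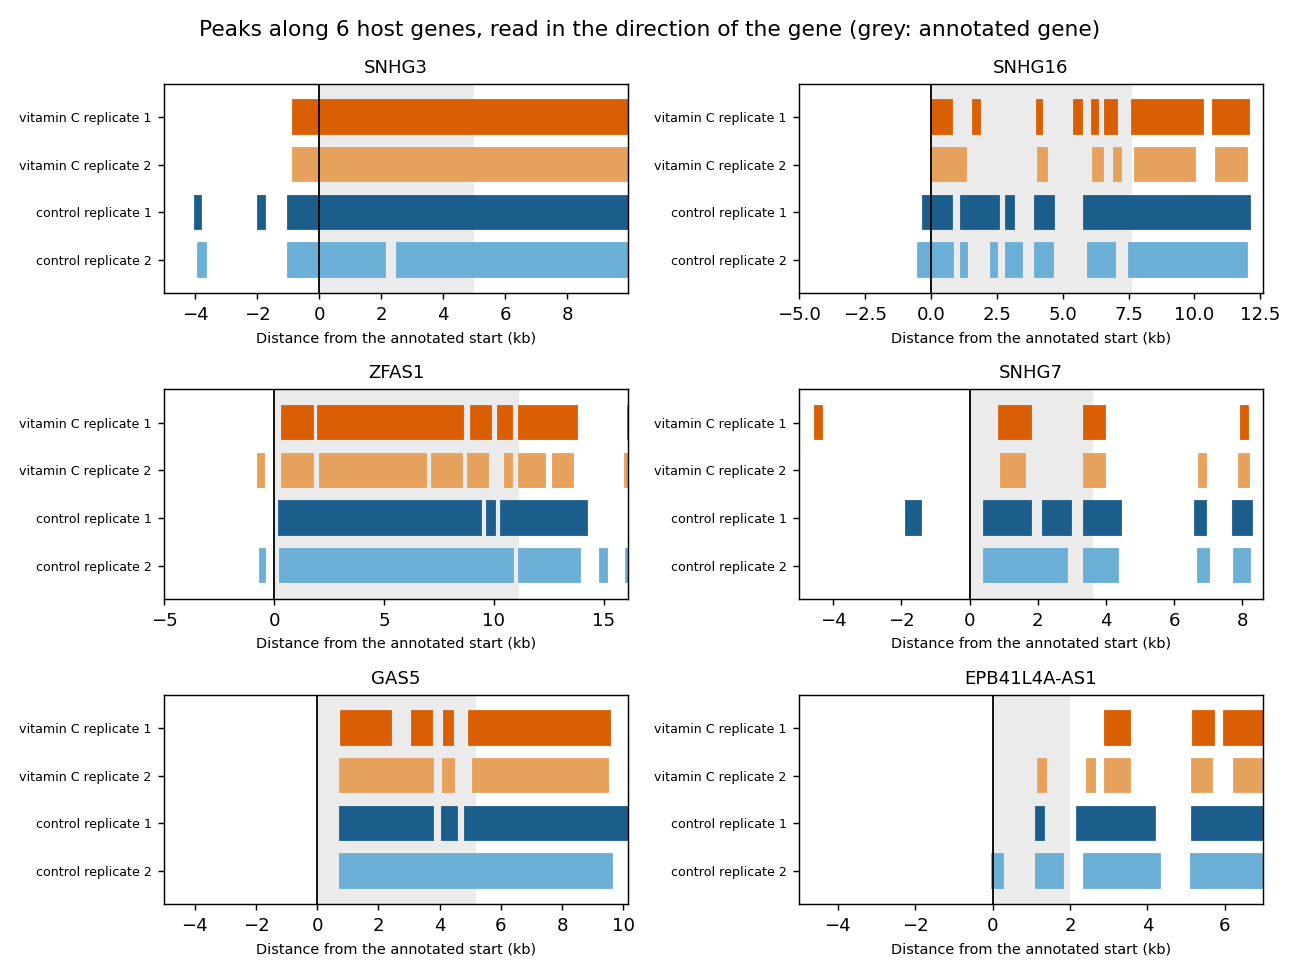
Peaks (bars) along 6 host genes in each library, with the distance from the annotated start on the x axis (kb), the gene in grey, and peaks drawn only to 5 kb beyond the gene on either side. SNHG3, ZFAS1 and GAS5 are covered over most of their length in all 4 libraries, while the vitamin C bars of SNHG16, SNHG7 and EPB41L4A-AS1 are fewer or shorter than the control bars.

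The start base itself lay in a peak in 8 and 8 of the 21 members with a listed start and a peak in both controls with vitamin C, against 10 and 11 in the controls. The same share was 9.32% and 8.62% with vitamin C, against 20.8% and 17.1% in the controls, over 998 other lncRNA genes. The 8 starts in a peak in all 4 libraries were those of SNHG1, SNHG3, SNHG5, SNHG8, SNHG19, SNHG21, SNHG29 and ZFAS1. GAS5, although covered over most of its length, had its listed start outside the peaks in every library. The sequences of the 8 starts are given because they were open under both conditions, with that of SNHG18, which had no peak in any library, beside them. Each is 90 bases of the RefSeq sequence on GRCh38.p14, read 5′ to 3′ on the strand of the gene, with 50 bases before the listed start and 40 from it on, and capitals mark the longest run of C and T that meets the 21 bases centred on the start.

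SNHG1 (chr11:62855846-62855935, minus strand): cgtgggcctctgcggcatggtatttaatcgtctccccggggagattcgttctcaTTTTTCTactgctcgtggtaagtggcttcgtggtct
SNHG3 (chr1:28505893-28505982, plus strand): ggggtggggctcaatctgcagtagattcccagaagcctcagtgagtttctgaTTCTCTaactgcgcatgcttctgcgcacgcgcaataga
SNHG5 (chr6:85678694-85678783, minus strand): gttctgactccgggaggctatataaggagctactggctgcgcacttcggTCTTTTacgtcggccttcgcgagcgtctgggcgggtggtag
SNHG8 (chr4:118278712-118278801, plus strand): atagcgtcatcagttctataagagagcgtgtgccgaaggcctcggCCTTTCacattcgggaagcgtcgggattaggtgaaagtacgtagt
SNHG19 (chr16:2155319-2155408, minus strand): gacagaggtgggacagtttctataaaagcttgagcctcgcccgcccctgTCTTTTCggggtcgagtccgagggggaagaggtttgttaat
SNHG21 (chr15:82750514-82750603, plus strand): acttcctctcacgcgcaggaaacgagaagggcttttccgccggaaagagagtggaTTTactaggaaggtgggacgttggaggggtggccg
SNHG29 (chr17:16438937-16439026, plus strand): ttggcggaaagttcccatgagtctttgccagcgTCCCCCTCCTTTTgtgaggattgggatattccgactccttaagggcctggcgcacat
ZFAS1 (chr20:49278592-49278681, plus strand): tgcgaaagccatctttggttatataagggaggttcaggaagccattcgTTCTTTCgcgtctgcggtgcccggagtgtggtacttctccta
SNHG18 (chr5:9546150-9546239, plus strand): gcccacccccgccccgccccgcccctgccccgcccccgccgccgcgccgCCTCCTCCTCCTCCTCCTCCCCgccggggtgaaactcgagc

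Runs of C or T at the start were frequent among the host genes. A run of at least 6 bases met the 21 bases around the start, on the strand of the gene, in 15 of the 21 members with a peak in both controls (71.4%), against 29.8% of 6909 promoters of genes with a peak in both controls and 31.5% of all 27305 promoters. Of the 7 members without a peak in both controls 3 had such a run, and SNHG18 had one of 22 bases, the longest shown here, while SNHG21, open in all 4 libraries, had one of only 3. The letters CTTTT, as in SNHG5, SNHG19 and SNHG29 above, stood in the same 21 bases in 5 of the 21 (23.8%), against 2.52% of promoters of genes with a peak in both controls and 2.68% of all promoters. Such runs can overlap this motif. The letters TATAAA, searched on the strand of the gene between 40 and 21 bases before the start, stood in 2 of the 21, SNHG7 and SNHG19, against 1.71% of promoters of genes with a peak in both controls and 2.48% of all promoters. These are matches of letters only, and the motif shares were not tested.

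Fewer of the snoRNA genes inside the hosts lay in peaks with vitamin C than in the controls. SNHG14 held 84 of the 153 annotated snoRNA genes within members, and none of these 84 had at least 50% of its bases in a peak in any library. Of the other 69, 30 and 33 were covered to that share with vitamin C, against 42 and 42 in the controls. There were 26 covered in all 4 libraries, and of 39 covered in both controls 3 were covered in neither vitamin C library, SNORD81 in GAS5, SNORD50A in SNHG5 and SNORA71C in SNHG17. The 632 snoRNA genes inside protein-coding genes were covered in 6.49% and 5.22% with vitamin C, against 13.8% and 12% in the controls. Of 64 of these covered in both controls, 25 were covered in all 4 libraries and 21 in neither vitamin C library.

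By class, 22 and 24 of 38 box C/D genes outside SNHG14 were covered with vitamin C, against 30 and 30 in the controls. Of 23 box H/ACA genes, 7 and 8 were covered with vitamin C, against 11 and 11 in the controls, and none of 4 small Cajal body RNA genes was covered in any library. Within GAS5, 6 and 9 of 11 snoRNA genes were covered with vitamin C, against 10 and 11 in the controls. SNORD80, SNORD79, SNORD78, SNORD76, SNORD75 and SNORD74 were covered in all 4 libraries. Within SNHG1, 7 and 9 of 9 were covered with vitamin C, against 9 and 9 in the controls, and SNORD22 and SNORD29 were the ones missing in vitamin C replicate 1. All 3 in ZFAS1 and both in SNHG3 were covered in all 4 libraries, while the 3 in SNHG29 were covered in vitamin C replicate 1 and both controls but not in vitamin C replicate 2.

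A protein-coding gene stood in the window of 25 of the 32 members, and of 20 of the 25 members with a peak in both controls. How much of a host's coverage came from such a neighbour was not tested with strand, since peaks have none. With all bases of protein-coding genes widened by 1 kb left out of the windows, 15 of the 18 members that still had a peak in both controls had peaks in all 4 libraries. The share over other genes was not computed under this setting. SNHG3, with 100 bp of window left, had none with vitamin C under this setting.

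Strength in the controls moved with the coverage left. For each gene, the strongest peak's percentile by fold within its list was averaged over both controls, and the median over the members was 97.1, against 75.3 over all genes with a peak in both controls. At or above that median, 13 of 13 members had a peak in all 4 libraries, as did 98.7% of 1092 genes, with a median log2 ratio of -0.31 in the members and -0.52 in those genes. Below it, 10 of 12 members had a peak in all 4 libraries, as did 44.7% of 8509 genes, with a median log2 ratio of -1.34 in the members and -1.72 in those genes. The groups below the median were not alike in strength, since the members' median percentile there was 87.0, against 71.0 in all genes there.

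As a description across 25 members, Spearman's rho between the log2 ratio and the control percentile was 0.68, and 0.64 without SNHG14. Between the log2 ratio and the number of snoRNA genes it was 0.06, and 0.19 without SNHG14. Both measures use the same control lists, so no test is attached.

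The lengths of the lists also moved with the result. When each list was cut to its 9816 most significant peaks, 23 of the 23 members with a peak in both controls had peaks in all 4 libraries, where 77.0% of all such genes did. The covered length was then lower in both vitamin C libraries in 18 of 26 members, where 38.8% of all genes were, and higher in 1, SNHG6, where 3.60% were. Among those with a peak in both controls, 18 of 23 members and 3658 of 5432 genes were lower. The median log2 ratio was then -0.63 in the members and -0.62 in all genes, so the gap in median between members and all genes seen with the full lists was not seen with lists of equal length.

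**Figure D4:**
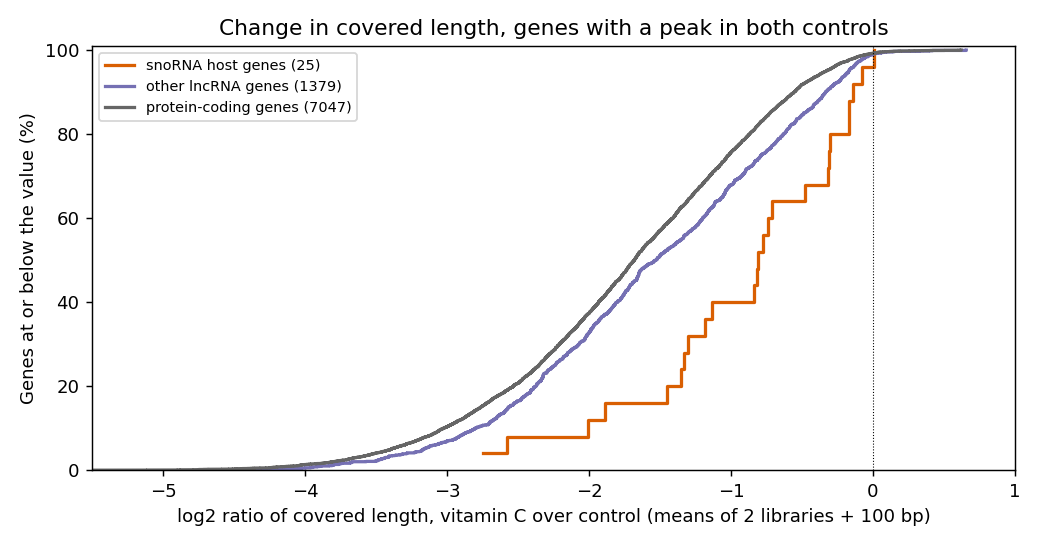
Cumulative share of genes (y axis, %) at or below each log2 ratio of covered length, vitamin C over control (x axis), for 25 snoRNA host genes, 1379 other lncRNA genes and 7047 protein-coding genes with a peak in both controls. The line of the host genes lies to the right, with a median of -0.81, against -1.53 in the other lncRNA genes and -1.68 in the protein-coding genes.

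Genes that share a role with the members are given for comparison. Of 48 listed protein-coding snoRNA hosts with a peak in both controls, 46 had a peak in all 4 libraries and none lost its peaks in both treated libraries, and the median log2 ratio was -0.83, near that of the non-coding hosts. RPL3, a ribosomal protein gene of that list, had 5009 and 4045 bp with vitamin C, against 8517 and 8083 bp in the controls. Over all protein-coding genes that hold an annotated snoRNA gene, 315 had a peak in both controls. Of these, 198 had a peak in all 4 libraries and 56 had none with vitamin C, with a median log2 ratio of -1.56. The nearness to the non-coding hosts therefore holds for the listed genes, whose median control percentile was 98.4, against 82.9 in the 315. Of 35 other lncRNA genes that hold an annotated snoRNA gene and had a peak in both controls, 20 had a peak in all 4 libraries and 7 had none in either vitamin C library, with a median log2 ratio of -1.47.

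Of 15 genes for proteins that bind or assemble snoRNAs, 10 had a peak in all 4 libraries and 4 had none with vitamin C, with a median log2 ratio of -1.58. DKC1, the pseudouridine synthase of box H/ACA particles, had 2295 and 1085 bp with vitamin C, against 5743 and 5087 bp in the controls, whereas NAF1, an assembly factor of the same particles, had 0 and 0 bp with vitamin C, against 1699 and 1287 bp in the controls. Of 17 genes for factors of nonsense-mediated decay, 9 had a peak in all 4 libraries and 4 had none with vitamin C, with a median log2 ratio of -1.67. Of 15 other abundant lncRNA genes, 11 had a peak in all 4 libraries and 2 had none with vitamin C, with a median log2 ratio of -1.84. Among these, NEAT1 had 2520 and 3174 bp with vitamin C, against 6432 and 3037 bp in the controls, a log2 ratio of -0.71, and its groups overlapped. OIP5-AS1 had 0 and 0 bp with vitamin C, against 1995 and 1996 bp in the controls.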

How the data were processed

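The 4 labelled libraries each had a peak list. MACS2 2.2.7.1, Bowtie2 2.4.5, deepTools, Trim Galore with cutadapt, and bcl2fastq 2.19 were named with hg38, per the submitters' processing notes, with settings not given in the sources used here. Peaks were called per library, and each deposited list gives for each peak the authors' ratio, a linear fold over the local background, and their −log10 p and −log10 q, with every −log10 q at 2.00 or above. The deposited lists hold no counts, so the depth of a library was solved from the fold and p of its peaks, under the peak caller's Poisson model, and in vitamin C replicate 1 this also needed a scale, for which the largest value that solved was taken.

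Only chromosomes 1 to 22 and X entered, which left out 4.23% to 5.06% of a list. Genes came from the RefSeq table of GRCh38.p14, the build of hg38. A peak met a gene by 1 bp or more within the gene widened by 1 kb. The log2 ratio was taken of group means plus 100 bp, and no test was made over the members as a list. The first listed start of each gene in the RefSeq promoter table was used, and SNHG6, SNHG9, SNHG15 and SNHG25 were not in it. Per-library values are given for GAS5, ZFAS1 and EPB41L4A-AS1, the 12 members with the greatest mean covered length, and up to 6 others by control coverage. The members and gene lists were chosen with earlier results of these data known. As a check of the code over 42233 genes, vitamin C lists were made from the control lists by removing every peak at 200 genes. That 200 of 200 emptied genes were called without a peak follows from how the lists were made. For 50 of 50 genes the covered length equalled a count base by base. Noise, depth and list length were not simulated. Same-numbered replicates were checked for pairing: the rep 1 minus rep 2 differences of the groups correlated at -0.02 over 9601 genes, so the numbers were not taken as pairs. Python 3.11.15 with numpy 2.4.6, pandas 2.3.3, scipy 1.17.1 and matplotlib 3.10.9 was used.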

Additional observations from a re-analysis of the deposited data

How the results depend on the processing

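The summed covered length of the members was lower with vitamin C under every alternative run, with a log2 ratio of -0.46 when the lists were cut to equal length and between -0.74 and -0.65 when 1 library was left out. With equal lists 1 member, SNHG6, was higher in both vitamin C libraries (log2 ratio 1.13), and SNHG14 and SNHG11 turned positive (0.88 and 1.04). Leaving out 1 library in turn gave 21 to 24 members lower, 0 to 1 higher (SNHG3 without control replicate 1), 23 to 24 with peaks throughout, and a median log2 ratio of -0.88 to -0.68. The count of members that had peaks in both controls but lacked them in both vitamin C libraries, 0 in the full lists, was 0 to 1 when 1 library was left out (SNHG10 without control replicate 1, SNHG14 without vitamin C replicate 1, SNHG11 without vitamin C replicate 2). It was 1 at a −log10 q of at least 5 (SNHG11), with genes widened by 2 kb (SNHG10), and with coding neighbours left out (SNHG3), an alternative chosen after seeing the data, under which 15 of 18 members with a peak in both controls had peaks in all 4 libraries. With the replicate number as a block, the summed log2 ratio was -0.69 and 22 members were lower, by a looser rule that compares only libraries of the same number. Apart from the lists of equal length, counts under the alternatives were made for the members only. They cannot be set beside a share over all genes. Of 380 values of single members under 15 alternatives, 350 moved by no more than the spread between libraries, 27 moved further with no change of sign in a member whose groups did not overlap, and 3, those named above, changed sign in such a member. SNHG3, whose groups overlapped, also turned negative with genes widened by 2 kb (-0.02), without control replicate 2 (-0.03) and with coding neighbours left out (-1). The cause of these shifts was not tested. Every value from leaving out 1 library or from the block counted as within the spread, which comes from the same 4 libraries. SNHG14 at -4.52 without vitamin C replicate 1, against -2.58 with all libraries, was among them. Those settings therefore say little about how stable single members are. Only 2 libraries a group and the absence of read counts limit all values.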
